A study of Mus musculus with 22 samples.

Results

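Tbx5, Tbx20, Tbx2, Tbx3, Hand1 and Hand2 encode the T-box and Hand transcription factors that pattern the chambers of the embryonic heart. These 6 genes were chosen by name, with earlier results of these data known, out of 54356 annotated genes in the expression tables. All 6 passed the filter on low counts in whole hearts and in ventricles. They were followed in bulk RNA-seq of mouse hearts at stage E13.5, in which a conditional knockout of the transcription factor gene Prdm16 (cKO) was set against littermate controls, whose titles carry WT and whose manipulation is given as Mock. Every library is from the C57BL/6 strain. The whole heart groups had 3 cKO and 3 control libraries, the left ventricle groups 4 and 4, and the right ventricle groups 4 and 4. The Cre line, the deleted part of Prdm16 and the alleles of the littermates are not given in the sources used here. The series counts its tissues in cKO and littermate pairs, but no label names the pairs or ties a left ventricle to a right one. The main fits below therefore leave any pairing out. Their p-values set a difference between groups against the spread between libraries within groups.

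T-box factors bind a shared DNA word through the T-box domain, and differ in whether they activate or repress. Tbx5 is an activator of the atria, the left ventricle and the conduction system, and its loss in mice impairs the left side of the heart. Tbx20 is needed for the growth of all chambers and keeps Tbx2 out of the chamber wall. Tbx2 and Tbx3 are repressors that hold back the chamber programme, Tbx2 in the atrioventricular canal and outflow tract and Tbx3 in the conduction system. Hand1 and Hand2 are basic helix-loop-helix factors: in the mouse, Hand1 marks the outer curvature of the left ventricle, and Hand2 is needed for the right ventricle and is active in the endocardium, the epicardium and the neural crest.

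The libraries held between 14508722 and 62004017 reads assigned to genes, with all 6 whole heart libraries deeper than the ventricle libraries. Prdm16 was lower in the cKO in each tissue, with no overlap between genotypes, by a log2 fold change of -1.04 in whole heart, -1.19 in left ventricle and -0.75 in right ventricle. One library of the right ventricle controls, replicate 2, stood apart. Its summed level of 6 cushion and valve mesenchyme markers was 471 TPM (a level scaled for transcript length and library size), against 162 to 183 TPM in the other 3. It also held 53.1 CPM (counts scaled to library size) of the cushion gene Meox1, against 3.27 to 4.14 CPM. Whole heart control replicate 1 had reads for 19478 genes, against 25499 to 27146 in the other 5 whole hearts. Below, values of the 6 genes that move with right ventricle control 2 are given with and without it. In bulk tissue, fewer cells of a type and less RNA per cell cannot be told apart.

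Compared per length, Tbx20 was the highest of the 6 genes in every group and Tbx2 and Tbx3 were the lowest. In control left ventricles the mean levels ran from Tbx20 at 74.8 ± 6.88 TPM (SD, n = 4) through Hand1 at 44.7 ± 4.09, Hand2 at 37.5 ± 2.36 and Tbx5 at 28.3 ± 1.49 to Tbx2 at 2.34 ± 0.715 and Tbx3 at 2.29 ± 1.09 TPM. Hand1 overlapped Hand2 there, and Tbx2 overlapped Tbx3. In control right ventricles the order was Tbx20 at 59.7 ± 21.4 TPM, Hand2 at 38.8 ± 8.41, Tbx5 at 8.38 ± 1.66, Hand1 at 8.09 ± 2.76, Tbx2 at 1.42 ± 0.845 and Tbx3 at 0.564 ± 0.743 TPM (SD, n = 4). Tbx5 could not be separated from Hand1 in that group, nor Tbx20 from Hand2. Without control 2 the order was the same, at 49.3 ± 5.08, 34.6 ± 0.43, 8.98 ± 1.41, 6.73 ± 0.535, 1.0 ± 0.102 and 0.197 ± 0.128 TPM (SD, n = 3), and no neighbours in it overlapped. In control whole hearts the order was Tbx20 at 124 ± 7.05 TPM, Hand2 at 38.5 ± 5.69, Tbx5 at 19.7 ± 2.74, Hand1 at 16.1 ± 1.82, Tbx3 at 5.71 ± 1.48 and Tbx2 at 3.82 ± 0.898 TPM (SD, n = 3). Tbx5 and Hand1 overlapped there too, and so did Tbx3 and Tbx2. In cKO left ventricles Tbx5 stood next to Tbx20 in this order, at 48.0 ± 0.778 TPM, and overlapped Hand2 at 43.9 ± 6.1 TPM.

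**Figure D1:**
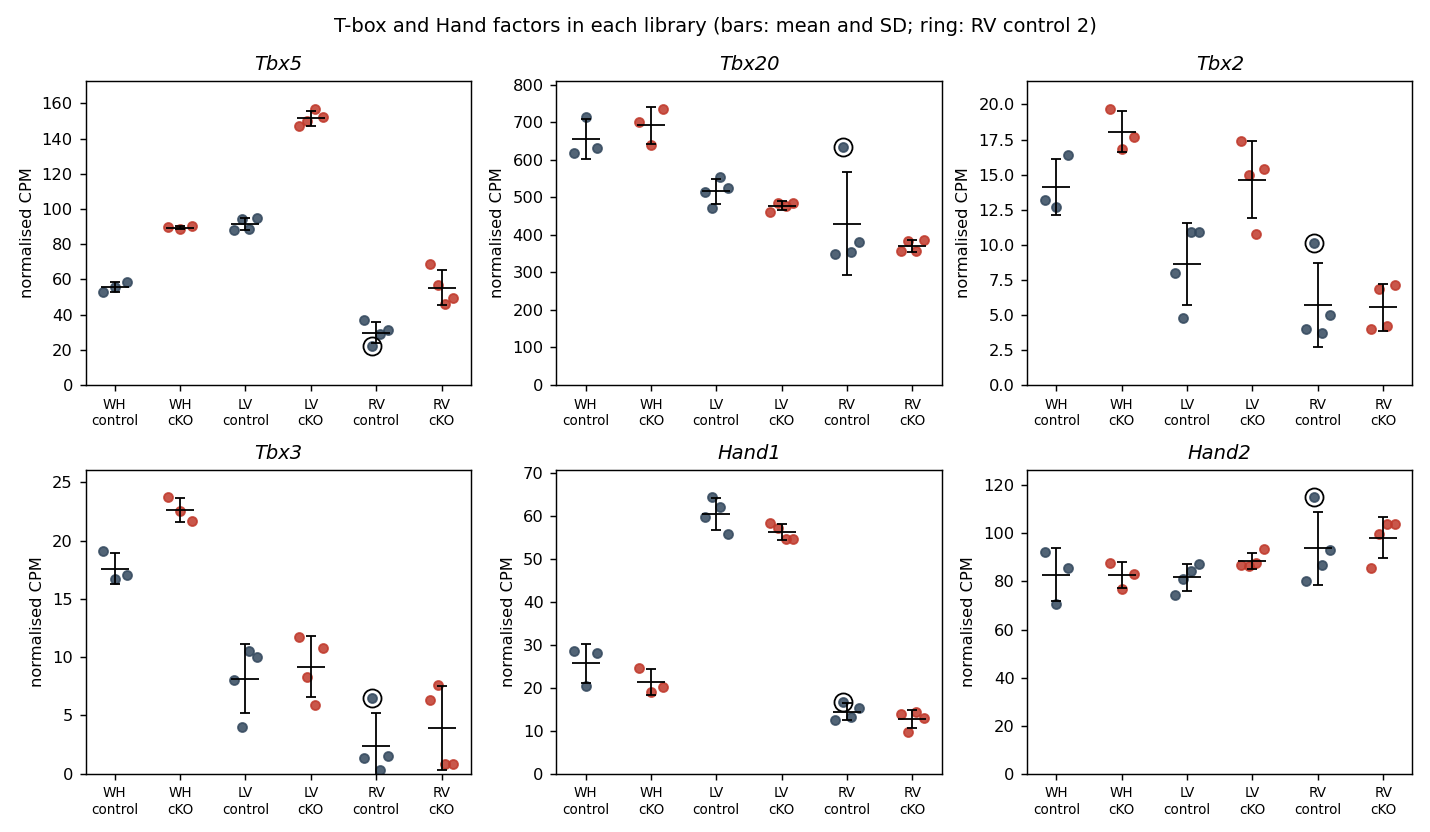
Normalised counts (CPM) of the 6 genes in each of the 22 libraries, by tissue (WH whole heart, LV left ventricle, RV right ventricle) and genotype; points are libraries, horizontal bars with whiskers are the mean and SD, and the ring marks right ventricle control 2. Tbx5 is higher in cKO than in control libraries in all 3 tissues, Hand1 lies at 54.5 to 64.3 CPM in left and 9.62 to 16.7 CPM in right ventricles, and the ringed library is the highest right ventricle control for every gene except Tbx5.

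Tbx5 was the one of the 6 genes that rose in all 3 cKO tissues. The gene lies on chromosome 5 (GRCm38, 119832668 to 119885219, plus strand), and Tbx3 lies before it on the same strand (119670669 to 119684724). In whole hearts the cKO libraries held 89.6, 88.4 and 90.3 CPM of Tbx5, against 53.1, 55.8 and 58.6 CPM in controls. The genotypes did not overlap, and the log2 fold change was 0.68 (SE 0.05, edgeR quasi-likelihood test with Benjamini-Hochberg adjustment, adjusted p = 0.00116). In left ventricles the cKO held 147, 150, 157 and 152 CPM against 88.2, 94.2, 88.5 and 95 CPM, and again the ranges were apart (log2 fold change 0.72, SE 0.11, adjusted p = 1.75e-04). In right ventricles the cKO held 68.7, 56.9, 46.3 and 49.2 CPM against 36.8, 22.3, 28.9 and 31.3 CPM, with no overlap and the widest relative spread of the 3 tissues (log2 fold change 0.89, SE 0.12, adjusted p = 1.35e-04). Without right ventricle control 2, the library lowest in Tbx5, the right ventricle value was 0.78 (adjusted p = 1.11e-04).

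The Tbx5 rise was not shown to differ between ventricles. The left minus right difference of the effect was -0.17 on the log2 scale, with a 95% interval of -0.50 to 0.16 (edgeR, adjusted p = 0.724). Every library left out in turn kept the call in each of the 3 tissues, with values of 0.64 to 0.72 in whole heart, 0.71 to 0.74 in left ventricle and 0.77 to 1.01 in right ventricle. Tests on log2 TPM, in place of counts, gave whole heart values of 0.74 and 0.77 that missed the threshold (limma, adjusted p = 0.0642 with a pseudocount of 1 and 0.0713 with 0.1). All 3 annotated Tbx5 transcripts are protein coding, and Tbx5-201, of 3942 bases, held most of the level. Its level in left ventricles was 39.9 ± 0.684 TPM in the cKO and 23.1 ± 0.902 TPM in controls (SD, n = 4).

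Against this, the background of calls differed a great deal between tissues. In whole heart 4.03% of 19160 genes tested were called at an adjusted p under 0.05, in left ventricle 25.6% of 16448 and in right ventricle 10.3%. Higher calls made up 1.96%, 12.3% and 6.12%, and lower calls 2.07%, 13.4% and 4.19%. These shares moved with single libraries. The 773 whole heart calls became 1292 without control 1, and the 1696 right ventricle calls became 2418 without control 2. Over all fits without one library the counts ran from 184 to 1292 in whole heart and from 1290 to 2418 in right ventricle. In left ventricle they ran from 3539 to 3863, with 4216 in the full fit. Of the 6 T-box and Hand genes, 2 rose in whole heart (Tbx5 and Tbx3), 1 in left ventricle (Tbx5) and 1 in right ventricle (Tbx5), and 0 fell in any tissue. Groups of libraries that do not overlap were found for 26.7% of genes in whole heart (13.8% higher and 12.9% lower in the cKO), 29.0% in left ventricle (14.1% and 15.0%) and 12.7% in right ventricle (7.61% and 5.14%). The members' median log2 fold change was 0.22, 0.14 and 0.01, beside 0.015, -0.001 and -0.005 over all genes tested. With 6 genes, 1 call in the left ventricle is close to the background share there. None of the 6 passed the test of a difference between ventricles, in which 1.43% of genes passed, 0.462% higher and 0.973% lower. For these 6 genes that test gave unadjusted p-values of 0.0889 or more.

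**Figure D2:**
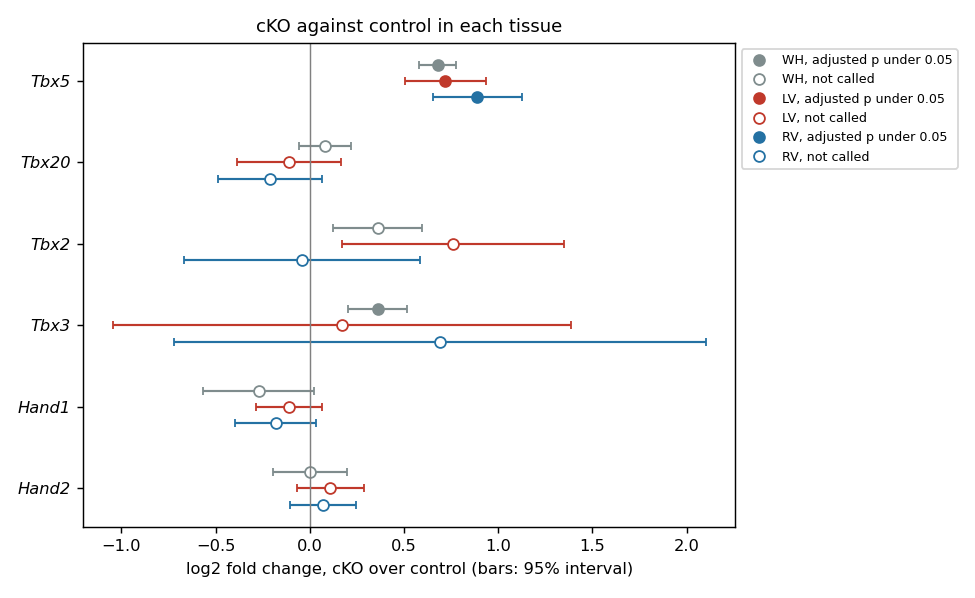
Log2 fold change of cKO over control for the 6 genes in whole heart (WH), left ventricle (LV) and right ventricle (RV); filled points have an adjusted p under 0.05, open points do not, and bars are 95% intervals. Tbx5 lies at 0.68, 0.72 and 0.89 with narrow bars, whereas the ventricle values of Tbx3 have bars that span more than 2 units.

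Tbx20, on the minus strand of chromosome 9 (24718138 to 24774303), was not called in any tissue. Whole hearts held 701, 638 and 736 CPM in the cKO and 618, 715 and 630 CPM in controls, which overlap (log2 fold change 0.08, 95% interval -0.06 to 0.22, edgeR adjusted p = 0.631). Left ventricles held 462, 486, 476 and 486 CPM in the cKO and 513, 472, 554 and 524 CPM in controls (-0.11, interval -0.38 to 0.16, adjusted p = 0.611). Right ventricles held 357, 383, 357 and 387 CPM in the cKO and 349, 635, 355 and 380 CPM in controls. The library at 635 CPM is right ventricle control 2, and the other 7 right ventricle libraries lie within 349 to 387 CPM. With it the log2 fold change was -0.21 (adjusted p = 0.387), and without it 0.04 (adjusted p = 0.697). The interval in whole heart leaves room for a change of up to 0.22 on the log2 scale.

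Tbx2, on chromosome 11 (85832551 to 85841948, plus strand), had its largest difference in the left ventricle. There the cKO libraries held 17.4, 15.0, 10.8 and 15.4 CPM, against 8, 4.77, 10.9 and 10.9 CPM in controls. The lowest cKO library sits just under the 2 highest controls, so that the groups overlap by a narrow margin. The log2 fold change of 0.76 (SE 0.30) missed the threshold in edgeR (adjusted p = 0.0727), and passed it with left ventricles fitted alone (adjusted p = 0.0253), with limma voom and quality weights (0.83, adjusted p = 0.0107) and with no filter on low counts (adjusted p = 0.0498). In whole heart the cKO held 19.7, 16.8 and 17.7 CPM, with 13.2, 12.7 and 16.4 CPM in controls. These do not overlap, as was the case for 26.7% of all genes there, but the log2 fold change of 0.36 was not called (SE 0.12, adjusted p = 0.16). Right ventricles held 3.99, 6.83, 4.24 and 7.16 CPM in the cKO against 4, 10.1, 3.69 and 4.97 CPM, where the 10.1 is again control 2 (log2 fold change -0.04, adjusted p = 0.966, and 0.40, adjusted p = 0.424, without it). The left minus right difference was 0.79, with an interval of -0.07 to 1.66 (adjusted p = 0.455), and 0.36 without control 2 (adjusted p = 0.762).

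Tbx3, the repressor of the conduction system, was low and uneven in the ventricles. Whole hearts held 23.7, 22.5 and 21.7 CPM in the cKO and 19.1, 16.7 and 17.0 CPM in controls. These were apart, as for 26.7% of genes there, and the log2 fold change of 0.36 (SE 0.08) passed the threshold narrowly in edgeR (adjusted p = 0.0467). Of the 6 fits that left out one whole heart library, only that without control 1 kept the call (0.42, adjusted p = 0.011), and the other 5 gave 0.33 to 0.39 with adjusted p from 0.0795 to 0.206. In right ventricles 2 cKO libraries held 6.34 and 7.63 CPM and the other 2 held 0.824 and 0.836 CPM. Among right ventricle controls, control 2 held 6.50 CPM and the other 3 between 0.280 and 1.49 CPM, which is 6 to 27 reads each. Left ventricles held 4.02 to 11.7 CPM over both genotypes. The log2 fold changes of 0.17 in left ventricle (interval -1.04 to 1.39) and 0.69 in right ventricle (interval -0.71 to 2.10) were not called, and their intervals hold changes of more than 1 unit upward. The right ventricle value was 1.94 without control 2 (adjusted p = 0.0972).

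Neither Hand gene was called between genotypes. Hand1, on chromosome 11 (57828705 to 57832818, minus strand), held 58.4, 57.1, 54.7 and 54.5 CPM in cKO left ventricles and 59.7, 64.3, 62.1 and 55.7 CPM in controls. The groups overlap (log2 fold change -0.11, interval -0.28 to 0.06, edgeR adjusted p = 0.423). Right ventricles held 13.9, 9.62, 14.4 and 12.9 CPM in the cKO and 12.5, 16.7, 13.1 and 15.4 CPM in controls (-0.18, interval -0.39 to 0.03, adjusted p = 0.343). Whole hearts held 24.7, 19.1 and 20.1 CPM against 28.6, 20.4 and 28.1 CPM (-0.27, interval -0.56 to 0.02, adjusted p = 0.415). All 3 estimates lie below 0 and none passed the test.

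Hand2, on chromosome 8 (57320983 to 57324633, plus strand), was the flattest gene of the 6. Its group means lay between 81.8 and 98.4 CPM in all 6 groups. Left ventricles held 86.7, 86.3, 87.6 and 93.5 CPM in the cKO and 74.4, 81.0, 84.5 and 87.3 CPM in controls, with an overlap at 86.3 to 87.3 CPM (log2 fold change 0.11, interval -0.07 to 0.29, edgeR adjusted p = 0.416). The right ventricle estimate was 0.07 (interval -0.11 to 0.24, adjusted p = 0.732), and 0.18 without control 2 (adjusted p = 0.103). The whole heart estimate lay within 0.20 of 0 in both directions (interval -0.20 to 0.19, adjusted p = 0.988), and its sign turned under several settings. In its sequence, 403 of 2321 stretches of 31 bases (17.4%, either strand) also occur in transcripts of another gene, mainly Hand2os1, which overlaps Hand2 on the opposite strand. The library kit is stranded, and how the counting used strand is not given in the sources used here. For the other members the shared part was 1.33% or less, and no stretch was shared between members.

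The comparison of left with right ventricles asks which of these genes mark a side, and whether the cKO altered that. In controls 21.0% of genes were called between the ventricles, 9.02% higher and 12.0% lower in the left. In the cKO 32.8% were called, 14.5% higher and 18.3% lower. The 3462 calls in controls became 4482 without right ventricle control 2, and ran from 2583 to 4482 over all fits without one library. The 5398 calls in the cKO ran from 4489 to 5091 over such fits. Left and right libraries did not overlap for 20.7% of genes in controls (9.75% higher and 11% lower in the left) and 34.2% in the cKO (15.5% and 18.7%). Tbx5 and Hand1 were higher in the left ventricle in both genotypes. Hand1 had a log2 fold change of 2.07 in controls (SE 0.10, edgeR adjusted p = 1.21e-09) and 2.14 in the cKO (SE 0.10, adjusted p = 7.52e-10). Ordered by p, it stood at number 2 and number 3 of the 16448 genes tested. Tbx5 had 1.62 in controls (SE 0.12, adjusted p = 1.96e-07) and 1.45 in the cKO (SE 0.12, adjusted p = 2.12e-07). For both genes every left library lay above every right one, and cKO right ventricles, at 46.3 to 68.7 CPM of Tbx5, stayed below control left ventricles at 88.2 to 95 CPM. The left minus right difference in the cKO effect, which is also the change of this side difference, was 0.07 for Hand1 (interval -0.20 to 0.34, adjusted p = 0.877).

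Tbx2 was called between the ventricles in the cKO alone, at 1.40 (SE 0.31, edgeR adjusted p = 0.00234), with 10.8 to 17.4 CPM in the left and 3.99 to 7.16 CPM in the right. In controls it was 0.60 (adjusted p = 0.191) with right ventricle control 2 and 1.04 (adjusted p = 0.0104) without it, and the change of the side difference did not pass its test, as given above. Tbx3 was 1.75 in controls (interval 0.40 to 3.09, adjusted p = 0.082) and 1.22 in the cKO (interval -0.06 to 2.50, adjusted p = 0.169). The control value was 2.99 (adjusted p = 0.00444) without control 2. Tbx20 was 0.26 in controls (adjusted p = 0.192), 0.51 without control 2 (adjusted p = 2.11e-06), and 0.36 in the cKO, just over the threshold (adjusted p = 0.0507). The cKO libraries of both sides did not overlap for Tbx20, at 462 to 486 against 357 to 387 CPM. Leaving out control 2 therefore brought Tbx20, Tbx2 and Tbx3 past the threshold in controls, beside Tbx5 and Hand1. The part of the cushion genes that are high in that library in these values was not tested. Hand2 was the one member with estimates below 0 on both tests, -0.20 in controls (interval -0.38 to -0.02, adjusted p = 0.135) and -0.15 in the cKO (adjusted p = 0.22), neither called. Without right ventricle control 1 the control value was -0.27 and passed the threshold (adjusted p = 0.0473). The median over the 6 genes was 1.11 in controls and 1.31 in the cKO, beside 0.004 and 0.017 over all genes.

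**Figure D3:**
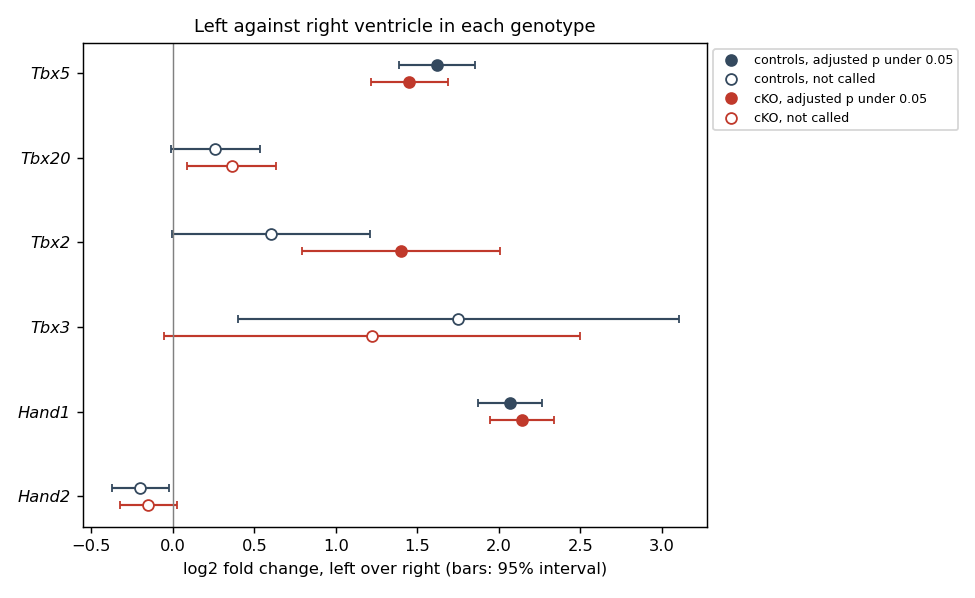
Log2 fold change of left over right ventricle for the 6 genes in controls and in the cKO; filled points have an adjusted p under 0.05 and bars are 95% intervals. Hand1 lies at 2.07 and 2.14 and Tbx5 at 1.62 and 1.45, Tbx2 is filled in the cKO alone, and Hand2 lies slightly left of 0 in both genotypes.

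Whole hearts also hold atria, the atrioventricular canal, the outflow tract and valves. Their levels beside isolated ventricles are a description, since depth and dissection differ together and cannot be told apart. In controls Tbx3 had 10.1 times and Tbx2 2.69 times its right ventricle mean TPM in whole heart. For left ventricles the ratios were 2.50 for Tbx3, without overlap, and 1.64 for Tbx2, with overlap. Tbx20 was 1.65 and 2.07 times its left and right ventricle means. Hand1 and Tbx5 lay between the ventricles, at 0.360 and 0.696 times the left and 1.99 and 2.35 times the right mean. Hand2 had ratios of 1.03 and 0.992 and overlapped both. Without right ventricle control 2 the ratios to the right ventricle were 29.0 for Tbx3, 3.82 for Tbx2, 2.51 for Tbx20, 2.39 for Hand1, 2.19 for Tbx5 and 1.11 for Hand2. The Tbx3 ratio of 29.0 divides by a mean of 0.197 TPM (0.0498 to 0.286 TPM per library). At so low a level the size of the Tbx3 ratio is unstable, as its move from 10.1 shows.

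The transcripts that carry Hand1 differed between whole hearts and ventricles in the quantification. Hand1-203, a protein-coding transcript of 1806 bases, held 6.97 to 14.3 TPM in the 6 whole hearts and was listed at 0 in all 16 ventricle libraries. Hand1-201, of 1904 bases, held 0.551 to 7.15 TPM in whole hearts and 29.0 to 36.2 TPM in left ventricles. A short transcript, Hand1-202, of 354 bases, was listed at 0 in 2 of 4 left ventricle cKO libraries and reached 18.4 TPM in another, which moves the summed TPM of the gene more than its counts. Tbx20-205, a retained-intron transcript, held 2.42 to 3.05 TPM in whole hearts and 0.236 to 0.821 TPM in ventricles. No main transcript's share was called as different between genotypes for Tbx5, Tbx20, Tbx3 or Hand1. The 12 exact two-sided permutation tests gave adjusted p of 0.686 or more. With 3 against 3 libraries the smallest possible p is 0.1, so no whole heart test could pass. With 4 against 4 libraries and adjustment over 12 tests, no ventricle test could pass on its own. The tests therefore do not decide whether shares differ. The largest gap in whole heart was that of Hand1-201, with 38.6 ± 5.0% of Hand1 TPM in the cKO and 20.0 ± 14.8% in controls (SD, n = 3, exact permutation p = 0.1). That gap of 18.6 percentage points was 10.2 without control 1. In right ventricles Tbx3-203 held 40.6 ± 47.2% of Tbx3 TPM in the cKO and 83.3 ± 22.3% in controls (SD, n = 4, exact permutation p = 0.2), a share that rests on few reads.

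Genes that overlap a member or start within 10 kb of one were read for the same libraries. Gm43050, a lincRNA on the opposite strand whose start lies 748 bases from that of Tbx5 without overlap, went opposite ways in the ventricles. In left ventricles it held 1.55, 2.48, 2.84 and 2.85 CPM in cKO libraries, against 4.93, 3.78, 6.72 and 5.47 CPM in controls. Every cKO library was below every control, as was the case for 15.0% of genes (log2 fold change -1.10, edgeR adjusted p = 0.00155). In right ventricles it held 6.58, 5.46, 4.83 and 5.90 CPM in the cKO and 4.38, 3.72, 2.24 and 3.87 CPM in controls. Here every cKO library was above every control, as was the case for 7.61% of genes, and the log2 fold change of 0.69 missed the threshold (adjusted p = 0.0542). The difference between the ventricles was -1.79 (adjusted p = 0.00766). It was called in all 16 fits that left out one ventricle library, with values from -1.92 to -1.62, and missed the threshold with log2 TPM and a pseudocount of 0.1 (limma, -1.59, adjusted p = 0.0658). In controls the left over right value was 0.56 (adjusted p = 0.0761), and in the cKO -1.23 (adjusted p = 5.44e-04), whereas Tbx5 itself was higher in the left in both genotypes. In whole hearts Gm43050 was -0.12 (adjusted p = 0.795). Its counts were small, at 27 to 156 reads per ventricle library.

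**Figure D4:**
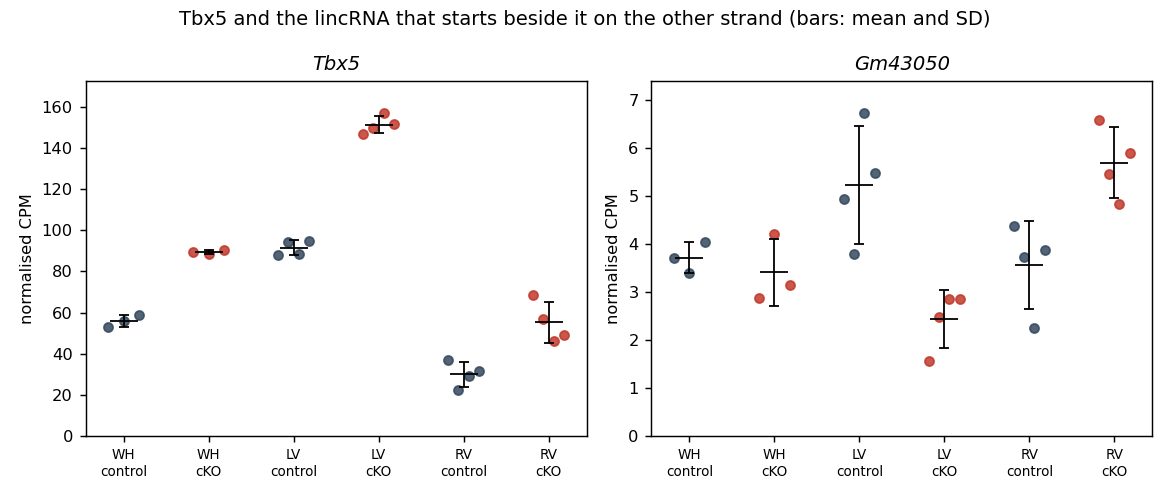
Normalised counts (CPM) of Tbx5 (left) and Gm43050 (right) in each library, by tissue and genotype; points are libraries and horizontal bars with whiskers are the mean and SD. Tbx5 is higher in cKO libraries of all 3 tissues, whereas Gm43050 is lower in the cKO in left ventricles (1.55 to 2.85 against 3.78 to 6.72 CPM) and higher in right ventricles (4.83 to 6.58 against 2.24 to 4.38 CPM).

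Among the other neighbours, 2610027K06Rik starts 328 bases from Tbx2 on the other strand. It held 0.626 to 1.2 CPM in cKO left ventricles and 0.274 to 0.532 CPM in controls, with a log2 fold change of 1.11 that was not called (edgeR adjusted p = 0.0706). In the cKO it was higher in left than in right ventricles, at 1.85 (adjusted p = 0.00631), as Tbx2 was. Hand2os1, which overlaps Hand2, was not called in any of the 6 comparisons, and its mean level lay between 200 and 277 TPM in the 6 groups. Gm34030, whose start lies 13602 bases from that of Hand2, fell in cKO left ventricles by 0.38 on the log2 scale (adjusted p = 0.0223), a call that 3 of 8 fits without one library lost (without cKO 2, control 3 or control 4). Tbx3os1 overlaps Tbx3 on the other strand, held at most 0.794 CPM in any ventricle library, and was not called.

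The known targets of the factors were read from lists that were chosen with earlier results of these data known. The called shares of lists, here and below, are therefore a description and not a test of the lists. Nppa, which encodes atrial natriuretic peptide, is activated by Tbx5 and repressed by Tbx2 and Tbx3 in rodent studies of its promoter. The T-box word searched was AGGTGTGA on either strand. It occurs in 1.28% of 32851 RefSeq promoter windows of 300 bases, and its shorter core GGTGTGA, which overlaps it, in 3.98%. In the Nppa window (RefSeq, GRCm38.p6) the word starts 250 bases before the gene's start, on the reverse strand, and is shown in capitals in the 250 bases before the start, at chr4:148000472-148000721 on the plus strand.
Nppa: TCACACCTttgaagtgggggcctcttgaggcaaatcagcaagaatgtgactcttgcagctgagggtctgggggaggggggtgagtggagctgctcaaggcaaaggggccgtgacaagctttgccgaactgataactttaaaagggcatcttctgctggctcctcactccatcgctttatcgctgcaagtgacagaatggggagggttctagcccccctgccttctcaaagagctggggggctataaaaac
Of 7 genes with a window in the Tbx5 list, 1 held the word, and of 6 in the Tbx2 and Tbx3 list, 1, in both cases Nppa. Tbx20 and Hand2 were the 2 members with a window, and neither held it. The Hand word searched, CATCTG, occurs in 17.2% of windows and in that of Hand2. A match is a description of letters and not of binding.

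Nppa rose in all 3 tissues, as Tbx5 did. The 4 cKO left ventricles held 5920, 6610, 6040 and 5900 CPM, with 3220, 3430, 2820 and 2570 CPM in controls. Right ventricles held 3590, 2340, 3550 and 3130 CPM in the cKO and 1580, 946, 1190 and 1900 CPM in controls. No ventricle group overlapped the other genotype. The cKO libraries lay above all controls for 14.1% of genes in left and 7.61% in right ventricle. The log2 fold changes of Nppa were 0.87 in whole heart, 1.02 in left and 1.17 in right ventricle (edgeR, adjusted p = 0.0138, 3.00e-04 and 2.64e-04). The whole heart call was lost in 3 of 6 fits without one library (without cKO 2, cKO 3 or control 3).

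The genes reported lower in Tbx5-deficient mouse hearts moved in both directions. Of 10 genes, Nppa included, 2 rose and 2 fell in whole heart, 2 rose and 4 fell in left ventricle, and 1 rose and 1 fell in right ventricle, with medians of -0.08, -0.14 and 0.02 on the log2 scale. Calls were thus 40.0%, 60.0% and 20.0% of the list, beside 4.03%, 25.6% and 10.3% of all genes tested. Id2, an inhibitor of basic helix-loop-helix factors with a role in the conduction system, rose in left ventricle (0.64, adjusted p = 0.00185), and Cacna1g, a T-type calcium channel gene, rose in whole heart (0.76, adjusted p = 0.00796), a call lost without cKO 2 or cKO 3. The list also holds the compact wall factor Hey2 and the ventricular factor Irx4, which fell in left ventricle by 1.14 and 0.49 (adjusted p = 1.45e-09 and 7.08e-05). They were also the 2 that fell in whole heart, by 0.41 and 0.35 (adjusted p = 0.0483 and 0.0157), calls that 5 and 4 of 6 fits without one library lost. Hey2 and Irx4 are themselves on the list of ventricular cardiomyocyte markers, of which 6 of 6 fell in left ventricle. The calcium release channel gene Ryr2 fell there by 0.30 (adjusted p = 3.44e-04), and the potassium channel gene Kcnj2 fell by 0.32 in left and 0.83 in right ventricle (adjusted p = 0.0195 and 2.46e-05). The left ventricle call of Kcnj2 was lost without cKO 1 or control 3. Gja5, the connexin gene of trabeculae and the conduction system, was not called in the cKO, at -0.29, -0.22 and -0.32. Between the ventricles it differed more than Tbx5, with a left over right log2 fold change of 2.32 in controls and 2.42 in the cKO (adjusted p = 1.34e-06 and 4.50e-07). The calcium pump gene Atp2a2 (-0.03, -0.06 and 0.10) was not called.

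Of 7 chamber genes that Tbx2 or Tbx3 repress, 1 rose and 2 fell in whole heart, 1 rose and 2 fell in left ventricle, and 2 rose and 1 fell in right ventricle, with medians of -0.26, -0.12 and 0.12. Each tissue thus had 42.9% of the list called, beside 4.03%, 25.6% and 10.3% of all genes tested. Gja1, the main connexin gene of working myocardium, fell in all 3 tissues, by 0.43, 0.49 and 0.33 (edgeR, adjusted p = 0.0205, 2.36e-04 and 0.0151). Its whole heart call was lost in 3 of 6 fits without one library (without cKO 1, cKO 2 or control 3), and its right ventricle call in 2 of 8 (without cKO 1 or control 3). Mycn, which drives growth of the compact wall, fell by 0.69 in whole heart and 0.81 in left ventricle (adjusted p = 0.00334 and 2.73e-08), with -0.16 in right ventricle (adjusted p = 0.0633). The muscle protein gene Smpx rose in right ventricle (0.38, adjusted p = 0.0191), a call lost without cKO 1 or cKO 3. Cited1, at -0.26, -0.12 and 0.12, was not called. Nppa and Gja5 are on the Tbx5 list too.

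**Figure D5:**
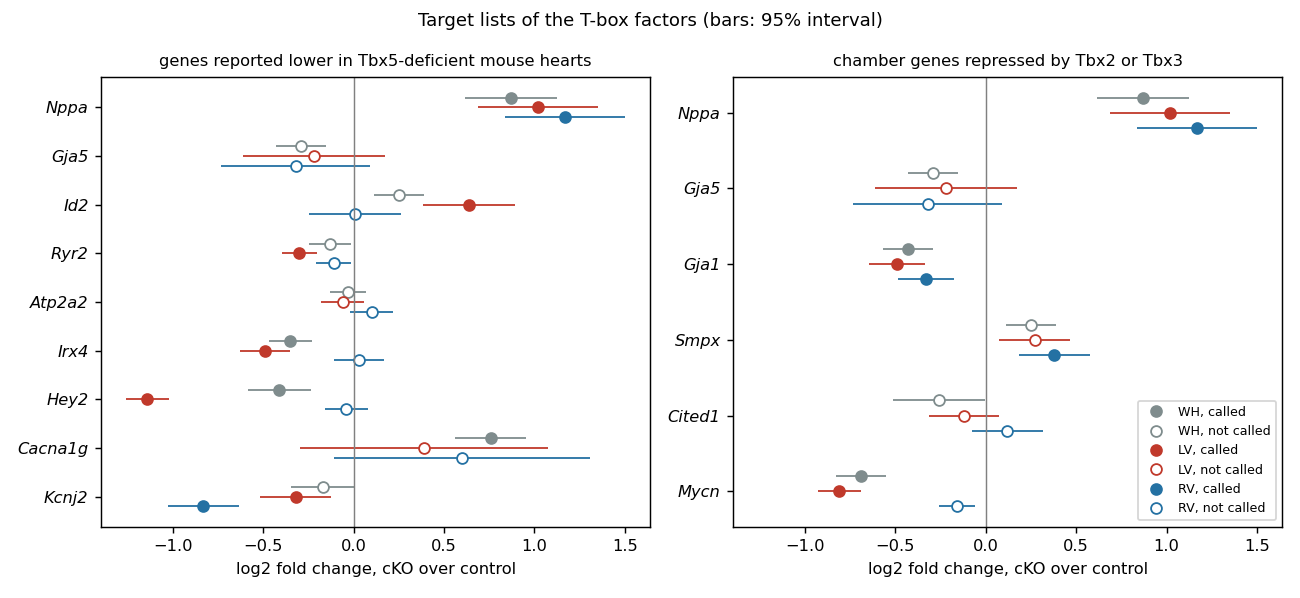
Log2 fold change of cKO over control in whole heart (WH), left ventricle (LV) and right ventricle (RV) for genes reported lower in Tbx5-deficient mouse hearts (left) and chamber genes repressed by Tbx2 or Tbx3 (right); filled points have an adjusted p under 0.05 and bars are 95% intervals. Nppa lies at 0.87 to 1.17 and Gja1 at -0.49 to -0.33 in all tissues, while Hey2 and Mycn lie low in the left ventricle, at -1.14 and -0.81, and near 0 in the right, at -0.04 and -0.16.

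Of 11 genes for proteins that bind or co-regulate with cardiac T-box factors, 1 rose in whole heart, 2 rose and 2 fell of 10 tested in left ventricle, and 1 rose and 1 fell in right ventricle. That is 9.09%, 40.0% and 20.0% called in the 3 tissues, beside 4.03%, 25.6% and 10.3% of all genes tested. The zinc finger factor gene Gata5 rose in all 3, by 0.54, 0.73 and 0.70 (edgeR, adjusted p = 0.0292, 6.94e-04 and 0.00305), with its whole heart call kept only without control 1 among 6 fits that left out one library. Gata6 fell in left and right ventricle by 0.24 and 0.28 (adjusted p = 0.0263 and 0.0287), calls that 5 of 8 and 4 of 8 such fits lost. The corepressor gene Tle3 rose in left ventricle (0.45, adjusted p = 1.22e-04), and Smarcd3, a chromatin remodelling subunit that works with Tbx5 in mouse heart formation, fell there by 0.20 (adjusted p = 0.00281). Nkx2-5 and Gata4, the best known partners of Tbx5, were not called in any tissue.

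The other 12 T-box genes were mostly silent. Under 1 TPM in every library were 9 of them, with 0.426 TPM as the highest value. Mga, which carries a T-box beside a helix-loop-helix domain, held 12.9 to 42.4 TPM, and Tbx18, a factor of the epicardium and sinus horn, held 7.98 to 26.4 TPM. None was called between genotypes, of 6 tested in whole heart and 3 in the ventricles. Tbx18 was higher in left than right ventricles in both genotypes, at 0.48 and 0.58 (edgeR, adjusted p = 0.00399 and 6.30e-04). Among 8 relatives and E-protein partners of the Hand factors, 0 were called in whole heart or right ventricle and 1 in left ventricle. That was Tcf21, a factor of the epicardium and its fibroblast lineage, which rose by 0.53 (adjusted p = 0.006). The share of this list called in left ventricle was 12.5%, beside 25.6% of all genes tested. The E-protein gene Tcf4 was higher in left than right ventricles, at 0.34 in controls and 0.36 in the cKO (adjusted p = 6.54e-05 and 1.61e-05).

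BMP signals act upstream of Tbx2 in the mouse atrioventricular canal. Of 11 genes of this group, 1 rose in whole heart, 3 rose in left ventricle, and 3 rose and 1 fell in right ventricle. The called share was 9.09%, 27.3% and 36.4%, beside 4.03%, 25.6% and 10.3% of all genes tested. In left ventricle it is thus near the share over all genes. Bmp2 rose in whole heart (0.38, edgeR adjusted p = 0.0457), and the call was kept only without control 1 among 6 fits that left out one library. In left ventricle the called genes were Smad5 (0.24, adjusted p = 4.59e-04), the inhibitory Smad6 (0.46, adjusted p = 0.0329) and Bmp4 (0.78, adjusted p = 0.0437), of which Smad6 lost its call in 6 and Bmp4 in 7 of 8 such fits. In right ventricle Bmp5 (0.42, adjusted p = 0.00107), Smad4 (0.26, adjusted p = 0.00957) and Bmp7 (0.24, adjusted p = 0.0451) rose and the receptor gene Bmpr1a fell by 0.16 (adjusted p = 0.0046), with the call of Bmp7 lost in 4 of 8 such fits. Of 8 genes of the atrioventricular canal and sinus node, 2 rose in whole heart (Bmp2 and Cacna1g), and in left ventricle the pacemaker channel gene Hcn4 fell by 0.34 (adjusted p = 0.0162), a call lost without control 4. These calls are 25.0% and 14.3% of the list genes tested, beside 4.03% and 25.6% of all genes. In controls Hcn4 and the sinus node factor gene Shox2 were higher in left than right ventricles, at 1.51 and 2.94 (adjusted p = 6.47e-08 and 0.00714), and the connexin gene Gjc1 was lower, at -0.25 (adjusted p = 0.00128). Without left ventricle control 4 the Shox2 value was 1.94 (adjusted p = 0.0389).

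Of the 6 genes listed as first heart field or left ventricle genes, which include Tbx5 and Hand1, 5 were higher and 1 lower in the left ventricle in both genotypes. All 6 were thus called, beside 21.0% of all genes in controls and 32.8% in the cKO. The lower one was Pcsk6, a proprotein convertase gene, at -2.68 in controls and -3.21 in the cKO (edgeR, adjusted p = 1.48e-07 and 2.65e-09). Pcsk6 also rose in all 3 cKO tissues, by 1.71, 1.47 and 1.99 (adjusted p = 1.45e-04, 7.03e-05 and 4.04e-07). Of 5 outflow tract and second heart field genes tested in the ventricles, Fgf10, Wnt11 and Bmp4 rose in left ventricle (1.52, 0.37 and 0.78, adjusted p = 8.09e-04, 0.00241 and 0.0437). The called share was 60.0% in left and 20.0% in right ventricle, beside 25.6% and 10.3% of all genes. The left share counts Bmp4, whose call was lost in 7 of 8 fits without one library. In right ventricle Rgs5, a pericyte gene, fell by 2.97 (adjusted p = 0.00525), and by 1.49 without control 2 (adjusted p = 0.000587).

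Across the 16 ventricle libraries, the protein-coding genes with the profile most like that of each member were named by Pearson correlation of log2 CPM, among 11349 genes. The libraries share 2 sides and 2 genotypes, so that a gene that differs between sides can correlate with any other such gene. For Tbx5 these were Gprin3, Adam33 and Gm7694 (r = 0.978, 0.977 and 0.975), and for Hand1 Nhsl2, Lrba and Crebrf (0.979, 0.968 and 0.966). For Tbx20 they were Antxr1, Nfix and Specc1 (0.981, 0.955 and 0.945), and for Tbx2 Clip2, Thbs2 and Nfia (0.957, 0.942 and 0.935). Tbx3 was nearest to Kif21b, Mysm1 and Zfp507 (0.940, 0.920 and 0.920) and Hand2 to Snx18, Ldlrad3 and Ccdc80 (0.898, 0.881 and 0.852). Among the members themselves, Tbx5 and Hand1 were the closest pair (r = 0.82), and Hand2 had values from -0.51 to 0.05 with the others. Tbx20, Tbx2 and Tbx3 correlated with each other at 0.70 to 0.74, and with Hand1 at 0.65 to 0.69. Tbx5 stood at 0.67 with Tbx2 and with Tbx3, and at 0.35 with Tbx20. Over the 15 libraries without right ventricle control 2, Tbx20 and Hand1 were the closest pair (r = 0.94). Tbx5 stood at 0.84 with Hand1 and with Tbx2, at 0.83 with Tbx3 and at 0.78 with Tbx20. The 3 pairs among Tbx20, Tbx2 and Tbx3 lay at 0.74 to 0.77, and Hand1 at 0.73 with Tbx2 and 0.69 with Tbx3. Hand2 had -0.51 to -0.04 with the others. The 3 nearest genes were then the same for Tbx2 and Tbx3, shared 1 gene for Tbx20 and for Hand1, and shared 0 for Tbx5 and Hand2. By rank correlation the top 3 of Hand1 shared no gene with those above, those of Tbx2 shared 2 and those of the other 4 members shared 1 each.

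Markers of other cell types moved with the genotype, and their part in the values above was not tested. Tbx5 is also a gene of the atria, and the part of atrial cells in its rise was not tested. The summed level of 8 atrial cardiomyocyte markers was 4730 to 5570 TPM in cKO and 3260 to 3510 TPM in control left ventricles, 5770 to 6040 against 4140 to 4480 TPM in right ventricles, and 4740 to 4850 against 3300 to 3730 TPM in whole hearts. Among controls this sum was higher in isolated right ventricles than in whole hearts, which hold the atria. It is therefore not a measure of atrial content. In each tissue 4 of the 8 rose. In left ventricles, where Myl7, Kcnj3, Myl4 and Nr2f2 were those 4 (0.94, 0.75, 0.33 and 0.36 on the log2 scale), the atrial marker Sln was at -0.64 and not called (adjusted p = 0.678). Ventricular cardiomyocyte markers fell in 6 of 6 cases in left ventricle (24500 to 30600 against 34300 to 36900 TPM), in 5 of 6 in whole heart and in 0 of 6 in right ventricle. Epicardial markers rose in 5 of 7 cases in left ventricle, 0 in whole heart and 1 in right ventricle. Endocardial and endothelial markers rose in 7 of 8 cases in left ventricle, 2 in whole heart and 3 in right ventricle. Their sum was also apart between genotypes in whole heart (499 to 540 TPM in the cKO against 405 to 440) and right ventricle (456 to 487 against 404 to 433). The 6 cushion and valve markers summed to 145 to 213 TPM in cKO and 165 to 277 TPM in control left ventricles, and of these only Vcan was called, which fell by 0.51 (edgeR adjusted p = 0.00334). In right ventricles Vcan also fell, by 0.38 (adjusted p = 0.0452), a call that 6 of 8 fits without one library lost, with -0.20 (adjusted p = 0.0547) without control 2. The 6 markers of neural crest and autonomic neurons, where Hand2 is also active, summed to at most 1.28 TPM in any library. Of 6 pan-cardiomyocyte markers 5 fell in left ventricle, 1 in whole heart and 0 in right ventricle. Of 6 erythroid markers 1 rose in left and 3 in right ventricle. Of all genes tested, 12.3% rose and 13.4% fell in left ventricle, 6.12% and 4.19% in right ventricle, and 1.96% and 2.07% in whole heart.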

How the data were processed

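Total RNA was sequenced in 22 libraries, with a stranded mRNA kit on a HiSeq 4000, per the labels' protocols. The deposited tables give estimated counts and TPM per transcript, and the submitters' processing notes name Salmon 1.2.1 and DESeq2 1.22.2. Of 140658 transcripts, 140137 were matched to genes of GENCODE; the other 521 held at most 0.204% of reads. Estimated counts were summed per gene and rounded, and TPM was summed.

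Genes were filtered with filterByExpr, scaled by TMM and tested with the quasi-likelihood F test of edgeR 4.0.16 (R 4.3.3). P-values were adjusted over all genes by Benjamini and Hochberg, with calls under 0.05. One fit held the whole hearts (19160 genes), another all 16 ventricle libraries (16448 genes). SEs were derived from the F statistic, and 95% intervals are normal intervals around the estimate. CPM is TMM-scaled within a fit. With 14508722 to 62004017 reads per library, intervals cover the spread between libraries. The fits were tested on simulated data. DESeq2 1.42.0, limma 3.58.1, other scalings, filters, pseudocounts and each library left out were tried.

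The genes named were the 6 members, Prdm16, called members of each list (up to 4 per comparison, and any gene of the 2 target lists), the 3 nearest genes by correlation and genes within 10 kb. Atrial markers, Vcan, Sln, Tnni3 and the cushion gene Meox1 were named after their values were seen. Members and lists were chosen with earlier results of these data known. Some members of the lists are not reported here by name. Figures were drawn with matplotlib 3.10.9.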

Additional observations from a re-analysis of the deposited data

Results flagged for a closer look

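Among the 24 groups of 4 libraries tested for a library far from the others, over the 6 members, 1 held such a library. Right ventricle control 2 held 635 CPM of Tbx20, and its gap to the next library was 0.89 of the group's range and above Dixon's critical value for 4 libraries. Chance flags about 1 in 20 such groups.

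In Prdm16 and 7 genes of the lists and neighbours the cKO effect differed between the ventricles by the test of the left minus right difference (edgeR). Of all 16448 genes tested 1.43% were called, 0.462% higher and 0.973% lower. By list, 2 of 10 genes of the Tbx5 list, 1 of 7 of the Tbx2 and Tbx3 list, 1 of 5 outflow tract genes and 1 of 11 BMP genes were called. For T-box partners, other T-box genes, Hand relatives, canal and sinus node genes and first heart field genes the count was 0. For Hey2 the difference was -1.10 (adjusted p = 5.04e-06), for Mycn -0.65 (adjusted p = 6.54e-04), for Irx4 -0.53 (adjusted p = 0.0133), for Gm43050 -1.79 (adjusted p = 0.00766) and for Tnni3, a cardiac troponin gene on the list of pan-cardiomyocyte markers, -0.46 (adjusted p = 0.00956). Each of these 5 stayed called in all 16 fits that left out one ventricle library. For Fgf10 it was 1.75 (adjusted p = 0.0375) and for Bmpr1a 0.20 (adjusted p = 0.0466), calls that 12 and 14 of the 16 fits lost. For Prdm16 it was -0.44 (adjusted p = 0.0404), a call that 13 of the 16 fits lost.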

How the results depend on the processing

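Of 3619 alternative values for 203 results, 3146 kept their direction and side of the threshold, and for counts their size. These include values that were not called in either setting. Of the rest, 365 lost a call, 22 gained one, 42 changed sign and 44 were counts that changed in size. Whole heart calls, 773 in all, were 1657 with DESeq2, 1777 with limma voom, 135 with length-scaled counts, 82 and 71 with log2 TPM and a pseudocount of 1 and 0.1, 2012 in a fit of all 22 libraries, and 184 to 1292 without one library. The left ventricle gave 2684, 2637 and 2575 calls, and the right 829, 721 and 741, with length-scaled counts and the same pseudocounts; the right gave 1052 with its libraries alone. For the left minus right difference the counts were 454 with DESeq2, 414 with voom, 64, 46 and 27 with the last 3 scalings and 125 to 358 without one library. Left versus right calls fell to 1693, 1387 and 1411 in controls and to 3205 in the cKO with length-scaled counts.

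Tbx5 in whole heart lost its call at 0.74 and 0.77 on log2 TPM, and Tbx3 at 0.43 (length-scaled), 0.41 and 0.46 (log2 TPM) and 0.35 (all 22 libraries). Without one library Tbx3 gave 0.33 to 0.42, and of these the value of 0.42, without control 1, kept the call. Tbx2 in left ventricle passed the threshold at 0.76 (no filter, and left ventricles alone) and 0.83 (voom). Tbx20 between cKO ventricles passed at 0.36 (relative log expression factors, no filter, voom, ventricles compared alone), 0.44 (library totals), 0.37 (1 CPM filter, all 22 libraries) and 0.46 (both log2 TPM). With voom Tbx20 (0.45) and Tbx3 (2.99) in controls and Tbx3 in the cKO (1.81) also passed between ventricles, as did Tbx3 in the cKO at 1.14 with log2 TPM and a pseudocount of 1. Without one library the control values between ventricles ran from 0.18 to 0.51 for Tbx20, 0.44 to 1.04 for Tbx2, 1.36 to 2.99 for Tbx3 and -0.27 to -0.084 for Hand2.

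Signs that turned belong to values that were not called. Hand2 in whole heart was 0.014 (library totals), 0.0034 (no filter), 0.023 (voom), 0.22 (length-scaled), 0.27 and 0.28 (log2 TPM), and -0.10 to 0.080 without one library. Hand2 between cKO ventricles was 0.052, 0.17 and 0.18 with the last 3 scalings. With voom Tbx2 in right ventricle was 0.33, and the left minus right difference was -0.091 for Tbx20 and -0.047 for Hand2. That difference was -0.10, -0.073 and -0.069 for Hand1 and 0.044 for Tbx3 on length and TPM scales. Without one library the ranges were -0.059 to 0.33 for Tbx3 in left ventricle; -0.20 to 0.40, -0.30 to 0.038 and -0.0035 to 0.18 for Tbx2, Tbx20 and Hand2 in right ventricle; and -0.15 to 0.19, -0.036 to 0.14 and -0.068 to 0.12 for the left minus right difference of Tbx20, Hand1 and Hand2. Transcript shares ran from -1.41 to 3.89 percentage points for Tbx5 and -15.0 to 7.4 for Tbx3 in whole heart, -17.0 to 1.68 for Tbx3 and -0.612 to 1.38 for Tbx20 in left ventricle, and -1.46 to 0.557 for Tbx20 and -12.2 to 6.68 for Hand1 in right ventricle. The cause was not tested.

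Same-numbered libraries correlated at -0.116 to 0.237 in their deviations. No label says that a number marks a pair, so the numbers were taken as names and the main fits treat the libraries as independent. The correlations do not settle whether they are. Between cKO left and cKO right ventricles all 4 libraries correlated best with their own number (0.0528 to 0.237), a hint from the data and not the design. A replicate block gave 218 whole heart calls, 0.36 for Tbx3 (adjusted p = 0.125) and 0.0016 for Hand2 there, and between ventricles 2.11 for Tbx3 in controls (adjusted p = 0.0472) and 0.37 for Tbx20 in the cKO (adjusted p = 0.0469). Low counts limit Tbx3, with 6 to 27 reads in each of 3 right ventricle controls. Levels, ratios and correlations of the members without right ventricle control 2 were added after seeing the data.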
